A study of Mus musculus with 13 samples.

Results

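The genes described here encode the proteins with which the mouse liver builds and exports plasma lipoproteins: the apolipoprotein genes Apoa1, Apoa2, Apoa4, Apoa5, Apoc1, Apoc2, Apoc3, Apoe and Apob, and Mttp, which encodes the large subunit of the microsomal triglyceride transfer protein. They were chosen by name, and all 10 were found among the 22048 genes of the count table. All 10 also passed the filter on low counts, since the lowest count of any of them in any liver was 3510.

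Lipoproteins carry triglyceride and cholesterol through the blood in particles coated with apolipoproteins. In hepatocytes, apoB is lipidated while it is still being made, with the help of the transfer protein, and leaves the cell in very-low-density lipoprotein. ApoA-I and apoA-II are the main proteins of high-density lipoprotein, and the small C apolipoproteins and apoE move between particles, where they set the rate of lipolysis and of uptake by receptors.

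Whole livers of 13 mice had been profiled by stranded mRNA sequencing. In the control group were 6 livers not depleted of their hepatic stellate cells, the vitamin A-storing pericytes of the sinusoids: males 1, 2 and 6 and females 3, 4 and 5. The depleted group, from which these cells had been removed, held 4 livers, male 3 and females 1, 2 and 4. The hepatectomy group, also not depleted, held 3 livers collected when 72 h had passed since partial hepatectomy, males 1 and 2 and female 3. The strain, the age, the means of depletion and any allele shared by the groups are not given in the sources used here, and no sequencing batch or date is given.

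Libraries held 35360991 to 51008737 counts. Nothing in the labels says that the livers came from separate litters or days, so the p-values measure the spread between these livers only. The 12 stellate cell markers summed to 305 to 801 CPM (counts scaled to the library) in control livers, 15.5 to 74.7 CPM in depleted livers and 338 to 634 CPM after hepatectomy, and all 12 were lower in depleted than in control livers. Hepatocyte markers were abundant throughout, with a summed level of at least 74136 CPM for the 9 that could be matched. Control replicate 6 had the lowest sums of hepatocyte, stellate, macrophage and endothelial markers among the controls, and depleted replicate 4 had the highest stellate, macrophage and lymphocyte sums and the lowest hepatocyte sum among the depleted livers. Calls on the 10 genes that change without either library are given without it.

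All values named CPM below are counts scaled to the library size and to the trimmed mean of M values (TMM), and TPM is the level per base of transcript, computed from the deposited gene lengths. These lengths cover all annotated exons of a gene and can exceed the length of the transcript made in liver. The order of genes by TPM and the ratios between genes depend on them. Fold changes are on the log2 scale with their standard error (SE), from a quasi-likelihood model of group and sex over the 13 livers. A gene was called changed at a Benjamini-Hochberg adjusted p under 0.05, over 13831 genes.

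Of the 10 genes, 7 lie in 2 clusters (mm10). Apoa1 (chr9:46228580-46230466, plus strand), Apoc3 (chr9:46232933-46235636, minus strand), Apoa4 (chr9:46240696-46243459, plus strand) and Apoa5 (chr9:46268633-46271919, plus strand) share 43.3 kb. Apoc2 (chr7:19671579-19681423), Apoc1 (chr7:19689484-19692658) and Apoe (chr7:19696109-19699166), all on the minus strand, share 27.6 kb. Apoa2 (chr1:171225054-171226379), Apob (chr12:7977648-8016835) and Mttp (chr3:138089854-138144968) lie apart. Of the exon bases counted for Apoc2, 112 of 932 also belong to Apoc4 on the same strand, so reads there cannot be assigned to either gene with certainty, and 457 of 6206 exon bases of Mttp overlap Trmt10a on the other strand.

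RefSeq start sites (GRCm38.p6) were found for 8 of the 10 genes, in 12 windows; Apoc1 and Apoc3 were not matched. The bases that lie before the start and outside any exon on the same strand are printed for 4 genes that passed the test in at least 1 comparison below. They are Apoa4 (chr9:46240594-46240695, plus strand), Apoa2 (chr1:171224904-171225053, plus strand), Apoc2 (chr7:19677942-19678082, minus strand) and Apoe (chr7:19699189-19699338, minus strand), each written 5′ to 3′ on its own strand. Capitals mark AGGTCA, an element bound by many nuclear receptors, which was the only match to a searched motif inside the bases printed. RefSeq gives 2 start sites for Apoa2 and 3 for Apoe, of which the one nearest the start of the gene as annotated is printed, and another Apoe window held TATAAA on both strands before its start.
Apoa4: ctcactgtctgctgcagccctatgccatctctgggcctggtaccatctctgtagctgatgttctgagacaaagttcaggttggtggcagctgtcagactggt
Apoa2: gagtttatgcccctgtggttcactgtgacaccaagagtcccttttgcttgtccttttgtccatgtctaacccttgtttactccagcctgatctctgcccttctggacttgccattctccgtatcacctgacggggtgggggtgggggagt
Apoc2: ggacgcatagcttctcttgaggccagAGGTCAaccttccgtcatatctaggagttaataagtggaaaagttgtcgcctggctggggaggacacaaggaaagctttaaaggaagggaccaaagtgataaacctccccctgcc
Apoe: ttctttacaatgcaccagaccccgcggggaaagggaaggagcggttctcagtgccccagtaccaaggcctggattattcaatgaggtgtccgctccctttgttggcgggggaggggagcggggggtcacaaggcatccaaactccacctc

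The motifs were searched on both strands of all 32851 RefSeq windows, which also reach past the start site. TATAAA, the core of the TATA box, was present in 13.6% of windows and in a window of Apoa2, Apoa5, Apob and Apoe. AGGTCA was present in 16.3% of windows and in a window of Apoa2 and Apoc2. CAAAGTCCA (0.475% of windows), GTTAATNAT (0.801%), TTGCGCAA (0.183%) and TTCCNGGAA (377 windows) had no exact match in a window of these genes. Of the genes that fell after depletion, Apoa2, Apoc2 and Apoe have a window here, and no searched motif was in a window of all 3. The window of Apoa4 held none of the letters searched.

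Per base of transcript, the control livers held most Apoa2 (25785 ± 4337 TPM, SD, n = 6), then Apoe (19609 ± 1337), Apoc1 (13032 ± 1660) and Apoa1 (12709 ± 5668). Apoc3, which slows lipoprotein lipase, followed at 3244 ± 162 TPM. At lower levels came Apoa5 (941 ± 170), Apob (869 ± 145), Apoc2 (609 ± 130), Apoa4 (161 ± 73) and Mttp (112 ± 5.87). The ranges of neighbours in this order overlapped for Apoa2 and Apoe, Apoc1 and Apoa1, Apoa5 and Apob, Apob and Apoc2, and Apoa4 and Mttp. Within livers, Apoa2 was above Apoe in 6 of 6 controls, while Apoc1 was above Apoa1 in 3 of 6. In depleted livers the order began with Apoa2 (17812 ± 1632 TPM, n = 4), Apoa1 (16078 ± 3370) and Apoe (13094 ± 1403), and after hepatectomy with Apoa1 (18524 ± 3672 TPM, n = 3), Apoa2 (16748 ± 4540) and Apoe (13885 ± 3876). The ranges of neighbours among these leading genes overlapped in both groups. Within livers, Apoa1 was above Apoa2 and Apoa2 above Apoe in 3 of 3 hepatectomised livers, and Apoa2 was above Apoa1 in 3 of 4 depleted livers. Apoa4 ranked 9 of 10 in controls and 6 of 10 after hepatectomy, at 1146 ± 868 TPM with a range that overlapped that of Apoc2. Within hepatectomised livers Apoa4 was above Apoc2 in 1 of 3. This was replicate 2, with 2137 TPM of Apoa4 against 776 and 523 TPM in replicates 1 and 3.

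**Figure D1:**
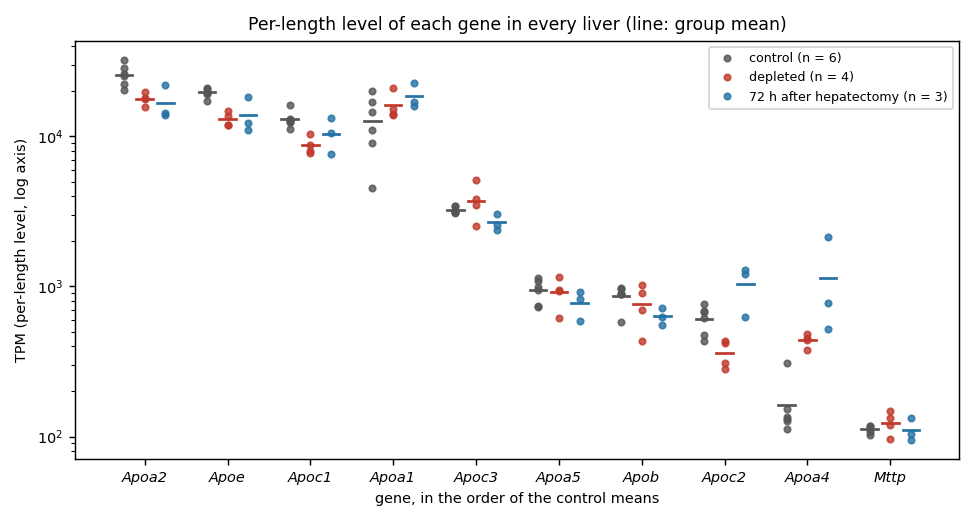
Level per base of transcript (TPM, log axis) of each gene in every liver, genes in the order of the control means, points for livers and lines for group means. Apoa2, Apoe, Apoc1 and Apoa1 lie at 4504 TPM or more in all livers, and Apoa4 lies at 112 to 308 TPM in controls and 523 to 2137 TPM after hepatectomy.

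The 10 genes together took 3.31% to 5.06% of all counts in control livers, 2.96% to 3.44% in depleted livers and 3.26% to 4.43% after hepatectomy. The spread among controls was unequal. Apoa1 varied most, with a coefficient of variation of 53.3% in CPM, while Mttp varied least at 6.54%.

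Depletion of stellate cells was compared with control first. Apoe, Apoc1, Apoc2 and Apoa2 fell and Apoa4 rose, while Apoa1, Apoa5, Apoc3, Apob and Mttp did not pass the test. In whole liver, fewer cells of a type and less RNA per cell cannot be told apart. In all, 5 of the 10 genes were called, 1 higher and 4 lower, against 33.9% of all genes tested (18.9% higher and 15.0% lower). Among the 486 genes that were at least as abundant as the least abundant of the 10, 52.7% were called, 67 higher and 189 lower, so the share called among the 10 genes lies close to that of equally abundant genes. The median log2 fold change was -0.26 over the 10 genes, -0.33 over the abundant genes and -0.03 over all genes.

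**Figure D2:**
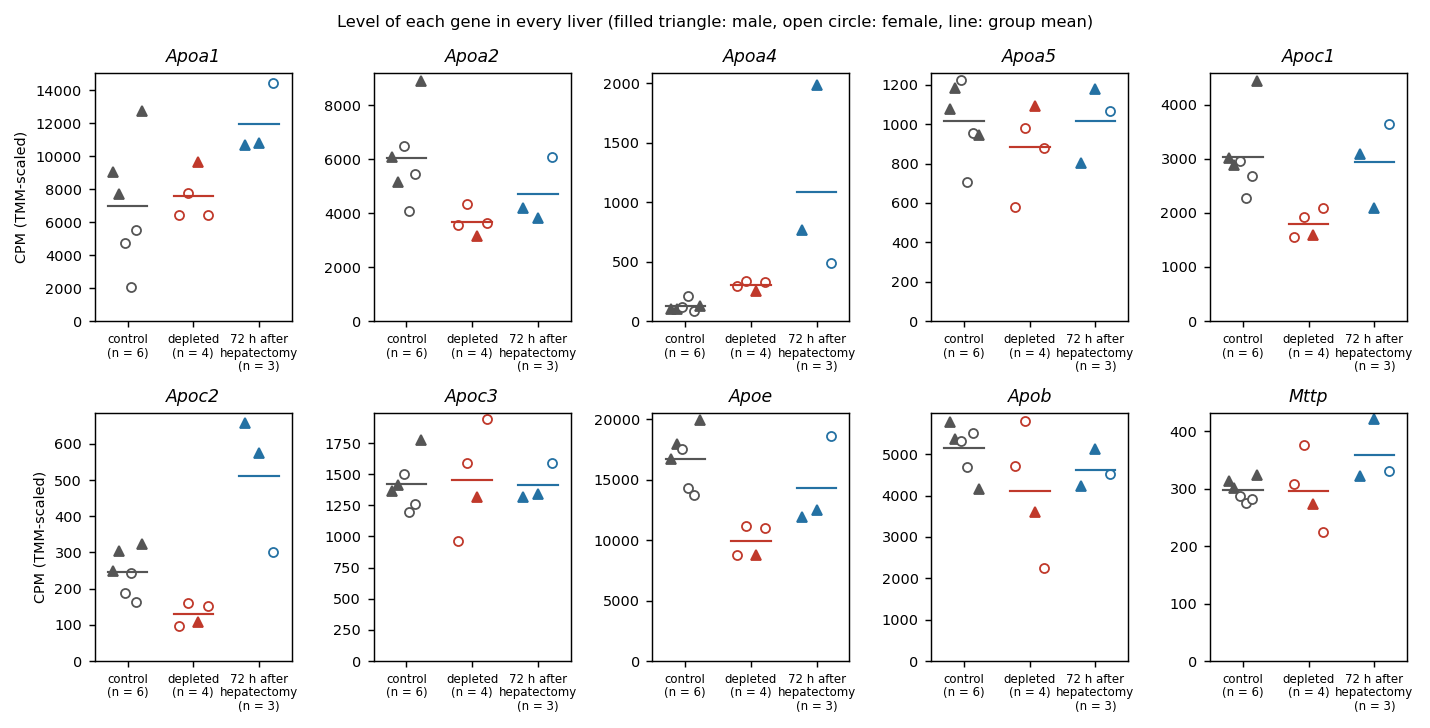
CPM of each gene in every liver, with filled triangles for males, open circles for females and lines for group means; every axis starts at 0. The 4 depleted livers sit between 8804 and 11142 CPM for Apoe, below all controls, and the 3 hepatectomised livers between 488 and 1987 CPM for Apoa4, above all other livers.

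Apoe encodes the ligand through which remnant particles are taken up by receptors on hepatocytes. Its level in controls ran from 13774 to 19961 CPM with a median of 17165, and the depleted livers 1 to 4 had 8807, 11142, 8804 and 10984 CPM. The groups did not overlap, as was the case for 4 of the 10 genes and for 28.4% of all genes. The log2 fold change was -0.77 ± 0.18 (adjusted p = 0.00536), a level 1.71-fold lower, and it passed the test whichever single liver was left out. With female livers alone it was -0.56 with an adjusted p of 0.112.

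The neighbours of Apoe on chromosome 7 fell with it. Apoc1, whose product inhibits the transfer and clearance of lipoproteins, had 2268 to 4437 CPM in controls (median 2923) and 1555, 1923, 1595 and 2096 CPM in depleted livers 1 to 4. All depleted livers lay below all controls, and the log2 fold change was -0.75 ± 0.22 (adjusted p = 0.0178). Apoc2 encodes the cofactor that lipoprotein lipase needs. It had 162 to 323 CPM in controls (median 245) and 97.3, 160, 107 and 152 CPM in depleted livers, with a log2 fold change of -0.75 ± 0.24 (adjusted p = 0.0266). The gap between the groups was narrow for Apoc2, since the highest depleted liver had 160 CPM and the lowest control 162 CPM.

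Ratios within a library do not depend on how libraries are scaled. Per base, Apoc1 stood to Apoe at 0.584 to 0.82 in controls and 0.636 to 0.704 in depleted livers, and Apoc2 stood to Apoe at 0.0227 to 0.0361 and 0.0235 to 0.0306. The depleted livers thus lay inside the control range for both ratios, while in CPM the levels of all 3 genes lay below the control range. For Apoc2 this depended on the scale. Per base, the highest depleted liver had 435 TPM of Apoc2 and the lowest control 431 TPM, so the groups overlapped. They also overlapped with libraries scaled by their size alone, at 181 CPM in the highest depleted liver and 166 CPM in the lowest control.

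Apoa2, the second protein of high-density lipoprotein, had 4088 to 8898 CPM in controls (median 5764) and 3568, 4329, 3140 and 3640 CPM after depletion. Depleted replicate 2 lay above the lowest control. The log2 fold change was -0.73 ± 0.23 (adjusted p = 0.0248).

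The calls on Apoa2, Apoc1 and Apoc2 were lost when single livers were left out, while most of the fold changes stayed near their size. Without depleted replicate 3, the only depleted male, the log2 fold change was -0.63 for Apoa2 (adjusted p = 0.124), -0.65 for Apoc1 (0.101) and -0.46 for Apoc2 (0.165), and 2 of the 10 genes remained called. Without depleted replicate 1 it was -0.72, -0.70 and -0.66, with adjusted p-values of 0.0571, 0.0513 and 0.0745, again with 2 genes called. Among females alone only Apoa4 was called, while Apoa2 was at -0.47 (adjusted p = 0.21), Apoc1 at -0.50 (0.137) and Apoc2 at -0.53 (0.187). Apoa2 was also lost without control replicate 3 (adjusted p = 0.0572), and Apoc2 without control replicate 4 (adjusted p = 0.0689). Without control replicate 6, and also without depleted replicate 4, all 5 genes passed.

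Apoa4 was the gene that rose. Its product is an exchangeable apolipoprotein made mainly by the intestine and, in mice, also by the liver. Control livers had 82.1 to 210 CPM (median 111), and depleted livers 1 to 4 had 298, 340, 255 and 328 CPM, so the groups did not overlap. The log2 fold change was 1.32 ± 0.36 (adjusted p = 0.0134), or 2.49-fold, and it passed the test in each of the 10 fits that left out a liver and among females alone (1.24, adjusted p = 0.0377). The enterocyte markers Alpi and Sis had 0 counts in all 13 livers, and the 7 enterocyte markers summed to 29.7 to 96 CPM in controls and 15 to 26.6 CPM in depleted livers, with Fabp2 lower. Of these 7 markers only 2 passed the filter on low counts. The part of RNA from the intestine in the rise of Apoa4 was not tested.

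Apoa1, the protein on which high-density lipoprotein forms, did not pass the test (0.37 ± 0.33, 95% confidence interval -0.35 to 1.09, adjusted p = 0.429). Controls ran from 2092 to 12763 CPM, and the depleted livers, at 6470, 7757, 9678 and 6463 CPM, all lay inside that range. Within females, however, the depleted livers (6463 to 7757 CPM) lay above the controls (2092 to 5508 CPM). The fit to females alone gave a log2 fold change of 0.75 (adjusted p = 0.193). The depleted male lay inside the range of the control males (7733 to 12763 CPM). Apoa5, which raises lipolysis of triglyceride, was at 706 to 1226 CPM in controls and 577 to 1090 CPM in depleted livers (-0.17 ± 0.20, interval -0.61 to 0.27, adjusted p = 0.562). Apoc3 was at 1196 to 1776 CPM and 961 to 1941 CPM (0.03 ± 0.20, interval -0.39 to 0.46, adjusted p = 0.918). Within the chromosome 9 cluster, therefore, Apoa4 was called and its 3 neighbours were not. The number of Apoa1 transcripts per Apoa4 transcript was 14.6 to 149 in controls and 29 to 55.7 after depletion. The overlap came from control replicate 4 alone, since the other 5 controls had 59.2 to 149.

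The assembly pair did not pass the test. Apob, the structural protein of very-low-density lipoprotein, had 4160 to 5773 CPM in controls (median 5351) and 4722, 5816, 3612 and 2260 CPM in depleted livers (-0.34 ± 0.23, interval -0.84 to 0.15, adjusted p = 0.275). Depleted replicates 3 and 4 lay below all controls and replicate 2 above them, and without replicate 4 the log2 fold change was -0.15 (adjusted p = 0.53). At 13934 bases, the Apob transcript is the longest of the 10. In depleted replicate 4 the genes of 8 kb or more had a median shift of -0.43 in log2 level against genes of 1 to 2 kb, the lowest of the 13 livers, and in control replicate 6, the control with the least Apob, it was -0.39. Depleted replicate 4 also had the lowest hepatocyte marker sum of its group (88611 CPM). The part of this shift and of the cell content in the Apob values was not tested.

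Mttp had 275 to 324 CPM in controls (median 294) and 309, 376, 274 and 224 CPM after depletion (0.02 ± 0.15, interval -0.31 to 0.34, adjusted p = 0.947). The depleted livers spread to both sides of the narrow control range. Their coefficient of variation was 21.6%, against 6.54% in controls.

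**Figure D3:**
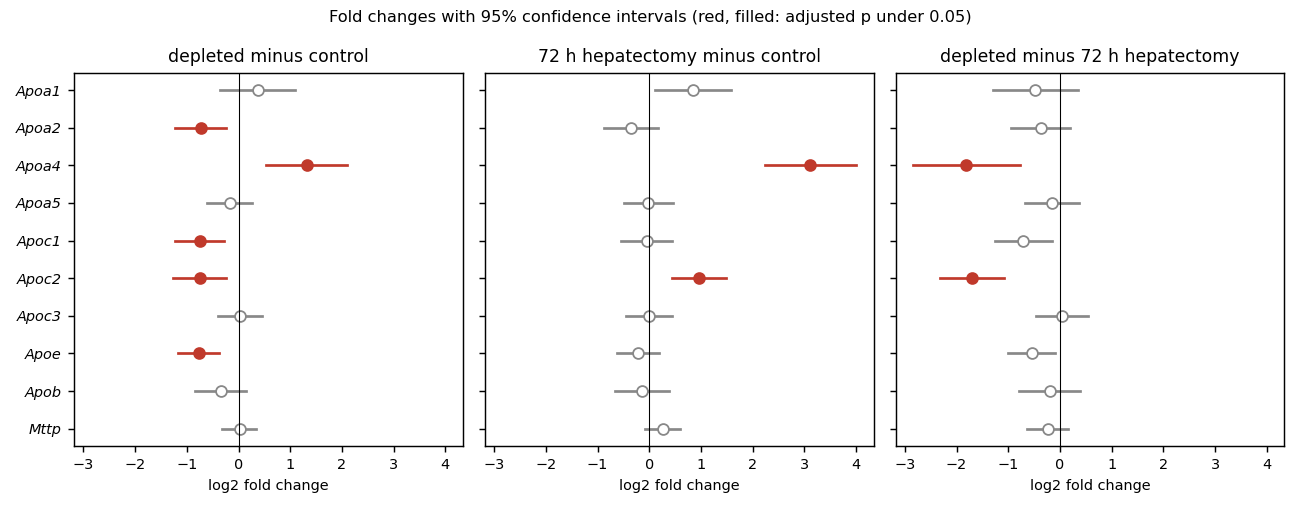
Log2 fold change of each gene with its 95% confidence interval in 3 comparisons, red and filled where the adjusted p was under 0.05. After depletion 4 genes are called lower and Apoa4 higher; after hepatectomy Apoa4 (3.12) and Apoc2 (0.96) are called higher.

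The cell content of the depleted livers differed from that of controls. Of 12 macrophage markers 6 were higher, and their sum was 1571 to 2976 CPM against 101 to 742 CPM in controls. Neutrophil markers summed to 169 to 363 CPM against 0.36 to 1.8 CPM, with 8 of 8 tested markers higher, and lymphocyte markers to 39 to 82.4 CPM against 3.82 to 6.67 CPM, with 7 of 7 higher. Macrophages are a known source of Apoe, Apoc1 and Apoc2 outside hepatocytes, and these 3 genes were lower in the livers in which the macrophage markers were higher. Of 9 hepatocyte markers 1 was higher and 1 lower, with a median log2 fold change of -0.03. Endothelial markers summed to 190 to 401 CPM against 74.4 to 373 CPM, and cholangiocyte markers to 49.7 to 90.9 CPM against 49.2 to 93.2 CPM, each with 1 marker higher. The part of the cell content in the fold changes above was not tested.

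Partial hepatectomy was compared with the same control livers, so the comparison shares its reference with the one above. Apoa4 and Apoc2 rose, and the other 8 genes did not pass the test. The 2 genes called, both higher, compare with 8.42% of all genes (6.06% higher) and with 14.6% of the 486 abundant genes. With the replicate number as a block, both genes were again called, among 632 genes in all against 1164 without it. The median log2 fold change was -0.01 over the 10 genes and -0.02 over all genes.

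Apoa4 reached 767, 1987 and 488 CPM in hepatectomised livers 1 to 3, against a control median of 111 CPM. Every one of these values exceeded those of all control and depleted livers, which was the case against control for 1 of the 10 genes and 13.7% of all genes in either direction. The log2 fold change was 3.12 ± 0.41 (adjusted p = 0.00135), or 8.71-fold, and ranked 49 among 13831 genes by p-value. Its size depended on replicate 2, without which it was 2.38 (adjusted p = 0.00155). The enterocyte markers, of which 2 of 7 passed the filter, summed to 45.3 to 75.3 CPM in these livers, inside the control range of 29.7 to 96 CPM.

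Apoc2 had 657, 574 and 300 CPM in hepatectomised livers 1 to 3, against 162 to 323 CPM in controls. The 2 males lay above all controls, and the female lay inside the control range but above the 3 control females, at 188, 242 and 162 CPM. Its log2 fold change was 0.96 ± 0.24 (adjusted p = 0.0277), or 1.94-fold. The call was kept in 3 of the 9 fits that left out a liver, and lost without control replicate 1, 2, 3 or 5 or hepatectomised replicate 1 or 2, with adjusted p-values of up to 0.0957. Across these 9 fits it ran from 0.81 to 1.22. It was also lost when libraries were scaled by their size alone (0.75, adjusted p = 0.0524). Its neighbours Apoc1 (-0.05 ± 0.23, interval -0.54 to 0.44, adjusted p = 0.926) and Apoe (-0.22 ± 0.19, interval -0.63 to 0.19, adjusted p = 0.512) did not pass. Per base, Apoc2 stood to Apoe at 0.117, 0.0975 and 0.0342 in the 3 livers, against 0.0227 to 0.0361 in controls, so the males were above the control range in this ratio and the female inside it.

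Apoa1 was at 10664, 10785 and 14430 CPM after hepatectomy, above 5 of the 6 controls, while control replicate 6 had 12763 CPM. Its fold change of 0.85 ± 0.34 (log2) had an interval of 0.11 to 1.59 but an adjusted p of 0.146, and was 0.25 (adjusted p = 0.735) without hepatectomised replicate 3 and 1.03 (adjusted p = 0.0772) without control replicate 6. Apoa2 was at 4197, 3829 and 6070 CPM (-0.36 ± 0.24, adjusted p = 0.383). Neither of the main proteins of high-density lipoprotein passed the test. Transcripts of Apoa1 per transcript of Apoa4 numbered 20.4, 7.97 and 43.4 in the 3 livers, against 14.6 to 149 in controls, so 2 of the 3 lay inside the control range. Here too the overlap came from control replicate 4 alone, since the other controls had 59.2 to 149, above all 3 livers.

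For the remaining genes, the intervals bound how far they could have moved. Apoa5 (-0.02 ± 0.22, interval -0.49 to 0.46), Apoc3 (-0.00 ± 0.21, -0.45 to 0.44), Apob (-0.14 ± 0.24, -0.67 to 0.39) and Mttp (0.26 ± 0.16, -0.09 to 0.60) had adjusted p-values from 0.349 to 0.995. With libraries scaled by their size alone, the log2 fold changes were -0.23 for Apoa5, -0.21 for Apoc3, -0.36 for Apob and 0.05 for Mttp. Apob was at 4224, 5128 and 4523 CPM and Mttp at 323, 422 and 331 CPM. Mttp in replicates 2 and 3 lay above all controls, whose highest value was 324 CPM.

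Neutrophil markers summed to 15.1 to 30.2 CPM after hepatectomy, above all controls, and 6 of 8 were called higher. The median log2 fold change was 0.69 over the hepatocyte, -0.18 over the stellate, -0.11 over the macrophage, -0.60 over the endothelial and -0.62 over the lymphocyte markers. Of 9 hepatocyte markers 3 were higher, as were the cholangiocyte keratins Krt7 and Krt19. Adipocyte markers summed to 4.49 CPM at most in any liver. The part of these shifts in the changes of Apoa4 and Apoc2 was not tested.

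The depleted and the hepatectomised livers were then compared with each other, in the same model over the 13 livers. Apoa4 and Apoc2 were lower in depleted livers, and no other gene of the 10 was called. Of all genes, 23.4% were called, and 10.1% were lower. Of the 486 abundant genes 30.5% were called and 127 were lower, with a median of -0.36, so 2 lower of 10 is no more than among equally abundant genes. For Apoc2 the log2 difference was -1.71 ± 0.29 (adjusted p = 0.00134), a level 3.27-fold lower, and it passed in every fit with a liver left out. For Apoa4 it was -1.81 ± 0.47 (adjusted p = 0.0165). Without hepatectomised replicate 2 it was -1.10, and without hepatectomised replicate 3 it was -2.44. The Apoa4 call was lost without depleted replicate 3 (-1.61, adjusted p = 0.0927) and when the 2 groups were fitted without the controls (-1.49, adjusted p = 0.108).

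Apoc1 (-0.71 ± 0.25, adjusted p = 0.0605), Apoe (-0.55 ± 0.21, adjusted p = 0.073) and Apoa1 (-0.48 ± 0.38, adjusted p = 0.394) had ranges that did not overlap between these groups, yet did not pass the test. Apoc1 did pass without depleted replicate 4 (-0.78, adjusted p = 0.045), without hepatectomised replicate 2 (adjusted p = 0.0296), without the sex covariate (0.038) and with DESeq2 (0.0309), and Apoe passed with DESeq2 (0.0388). Without hepatectomised replicate 3, Apoa1 was at 0.25. Ranges were apart for 5 of the 10 genes and for 34.0% of all genes. The lowest hepatectomised liver had 2099 CPM of Apoc1 and the highest depleted liver 2096 CPM. Markers of other cells moved with this comparison: all 12 stellate markers and 2 of 9 hepatocyte markers (median -0.67) were lower in depleted livers, and 4 of 12 macrophage, 7 of 8 neutrophil and 7 of 7 lymphocyte markers were higher. Their part in the differences was not tested. For Apoc2, depletion and hepatectomy lay on opposite sides of control, while Apoa4 was above control in both and higher after hepatectomy.

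Sex was examined because the groups were unbalanced. Among the 6 controls, males had 9042, 7733 and 12763 CPM of Apoa1 and females 4765, 2092 and 5508 CPM, without overlap. The log2 difference was 1.26 ± 0.36 (adjusted p = 0.242 with edgeR and 0.00902 with DESeq2). Apoc2 was at 249, 305 and 323 CPM in males and 188, 242 and 162 CPM in females (0.57 ± 0.19, adjusted p = 0.288). With edgeR 0 of the 10 genes were called, with 2 under an unadjusted p of 0.05, and 0.738% of all genes were called; DESeq2 called 1 of the 10. The ranges of males and females were apart for Apoa1, Apoc2 and Mttp and for 20.8% of all genes.

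**Figure D4:**
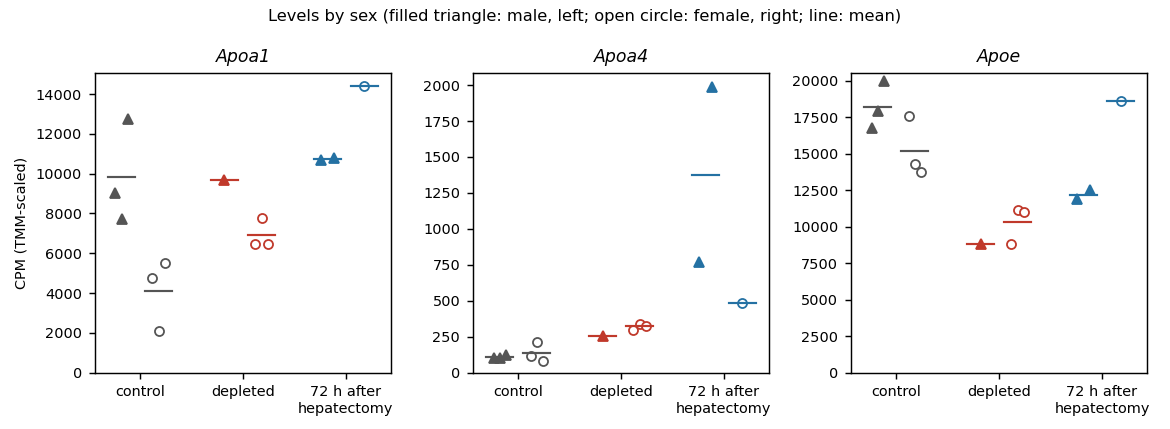
CPM of Apoa1, Apoa4 and Apoe by group and sex (filled triangles for males, open circles for females, lines for means), chosen after their values were seen. Apoa1 is lower in control females (2092 to 5508 CPM) than in control males (7733 to 12763 CPM), and the hepatectomised female has the most Apoa1 of all livers (14430 CPM).

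Terms that let the effect of each condition differ between males and females were added after the values had been seen. For hepatectomy, the male effect minus the female effect was -1.68 ± 0.56 for Apoa1, 1.82 ± 0.70 for Apoa4 and -0.87 ± 0.30 for Apoe, each with an adjusted p of 0.679 by edgeR. The hepatectomised males had 11901 and 12506 CPM of Apoe, below all control males, and the female had 18627 CPM, above all control females. None of these differences passed the test over all genes, of which 0 were called and 1000 had an unadjusted p under 0.05. They rest on a single hepatectomised female. For depletion, 3 genes of all were called and none of the 10, with an adjusted p of 1 for each.

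How the genes varied together within groups was described by correlating their deviations from the group mean over the 13 livers, which share library depth and scaling, with differences between the sexes left in. Apoa2 went with Apoc1 (Pearson r = 0.87) and with Apoe (0.79), and Apoc1 with Apoe (0.78), although Apoa2 lies on another chromosome. Apob went with Mttp (0.80) and against Apoc3 (-0.50). In depleted replicate 4, which had the lowest long-transcript shift (-0.43), Apob was at -1.02 and Mttp at -0.46 in log2 deviation from the mean, and the part of the shift in this correlation was not tested. Apoa4, Apoa5 and Apoc2 were less closely tied to the rest, with no r above 0.52 in size. Apoa4 ran from -0.52 with Apoc1 to 0.49 with Apoc2, and its neighbours on chromosome 9 gave -0.47 (Apoa1), -0.10 (Apoc3) and -0.13 (Apoa5).

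Among 3773 other abundant genes, the most similar gene was Mst1 for Apoa1 (r = 0.94), Fah for Apoa2 (0.94), Smarca4 for Apoa4 (0.89), Slc25a25 for Apoa5 (0.85) and Gsto1 for Apoc1 (0.93). It was Ola1 for Apoc2 (0.90), Msra for Apoc3 (0.93), Serpinf1 for Apoe (0.92), Thrb for Apob (0.95) and Gfm2 for Mttp (0.91). Each was picked as the highest of so many values, so they are descriptions only.

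The other genes of lipoprotein metabolism were read from 5 lists with 62 genes, of which all but Apod passed the filter on low counts. Of the 19 genes for the lipidation and secretion of apoB particles, 9 were lower and 1 higher after depletion, with a median log2 fold change of -0.40. Of all genes, 33.9% were called and 15.0% were lower. Of the 486 abundant genes 52.7% were called, with a median of -0.33, but they are no matched reference for this list. Several genes of the list were less abundant than those 486 (mean log2 CPM of at least 7.85), such as Dgat1 (20.1 CPM in controls) and Soat2 (42.9 CPM). Ces1d, a carboxylesterase that mobilises stored triglyceride for secretion, fell from 818 ± 251 CPM (SD, n = 6) to 226 ± 121 CPM (n = 4; -2.11 ± 0.35, adjusted p = 0.000536). Its relative Ces3a fell from 1618 ± 944 to 323 ± 211 CPM (-1.99 ± 0.53, adjusted p = 0.0116). Carboxylesterases are encoded by a cluster of similar genes, and the assignment of reads among them is uncertain. Also lower were Ces3b, Aadac, Soat2, Dgat2, Mia2, Cideb and Dgat1, among them the enzymes that complete triglyceride (Dgat1 and Dgat2) and cholesteryl ester (Soat2) synthesis. Vmp1, which helps to release lipoproteins from the endoplasmic reticulum, rose (0.54 ± 0.15, adjusted p = 0.0139). The number called lower was 5 without depleted replicate 3 and 3 among females alone, and over all genes it was 1174 and 861, against 2078 with all livers.

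In the list of high-density lipoprotein formation and remodelling, 2 of 7 genes fell and 1 rose, against 15.0% of all genes lower and 18.9% higher, a difference that so few genes cannot show. Lipc, hepatic lipase, fell from 250 ± 35.5 to 90.8 ± 35.9 CPM (-1.72 ± 0.25, adjusted p = 0.000249). Pdzk1, the adaptor that holds the receptor SR-BI at the cell surface, fell from 80.7 ± 7.87 to 40.7 ± 4.05 CPM (adjusted p = 6.28e-05). Abcg1, a cholesterol exporter abundant in macrophages, rose from 7.5 ± 3.13 to 38.8 ± 5.9 CPM (2.33 ± 0.41, adjusted p = 0.000927) in the livers with the higher macrophage markers. The part of the cell content in this rise was not tested.

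Of 7 other apolipoprotein and Apob mRNA editing genes tested, Apobec1, the editing enzyme, rose from 14 ± 2.36 to 30.7 ± 5.73 CPM (1.22 ± 0.13, adjusted p = 2.37e-05), Apon rose (0.60 ± 0.19, adjusted p = 0.0282), and Apoc4, the neighbour of Apoc2, fell (-0.63 ± 0.18, adjusted p = 0.0188). Without depleted replicate 3, and among females alone, only 1 of the 7 was called, and it was higher; calls over all genes were 2960 and 2695 in these fits, against 4692. Of the receptors and their regulators, Vldlr (-2.11 ± 0.53, adjusted p = 0.00808) and Sort1 (-0.56 ± 0.20, adjusted p = 0.0451) fell, and neither was called among females alone. Both Vldlr and Sort1 differed between control males and females (-4.30 ± 0.53 and 1.28 ± 0.16, male minus female, adjusted p of 0.0167 and 0.0102). So did Ces3b (618 CPM in males and 185 in females, adjusted p = 0.00645) and Tm6sf2 (18.2 and 44.4 CPM, adjusted p = 0.0116), and the groups compared were not balanced for sex. Lrp1 did not pass, with a log2 fold change of -0.35 ± 0.18 (adjusted p = 0.166).

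Of 18 transcription factors known to act on apolipoprotein genes, 2 rose and 6 fell after depletion, against 18.9% and 15.0% of all genes. Nr1d1, the clock repressor REV-ERB alpha that is known to repress Apoc3, fell from 158 ± 41.6 to 24.6 ± 13.9 CPM (-2.88 ± 0.51, adjusted p = 0.00104). Ppara, a fatty acid-sensing receptor, fell from 130 ± 39 to 49.5 ± 19.1 CPM (-1.45 ± 0.29, adjusted p = 0.0019). Cebpa, Srebf1, Creb3l3 and Nr5a2 were also lower. Cebpb rose (1.31 ± 0.24, adjusted p = 0.00102), as did Srebf2 (0.63 ± 0.22, adjusted p = 0.0421). Hnf4a, on which most of the apolipoprotein genes depend, did not pass (-0.11 ± 0.20, adjusted p = 0.723). The number called lower was 2 among females alone, where 861 of all genes were. The time of day at which livers were taken is not given in the sources used here.

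**Figure D5:**
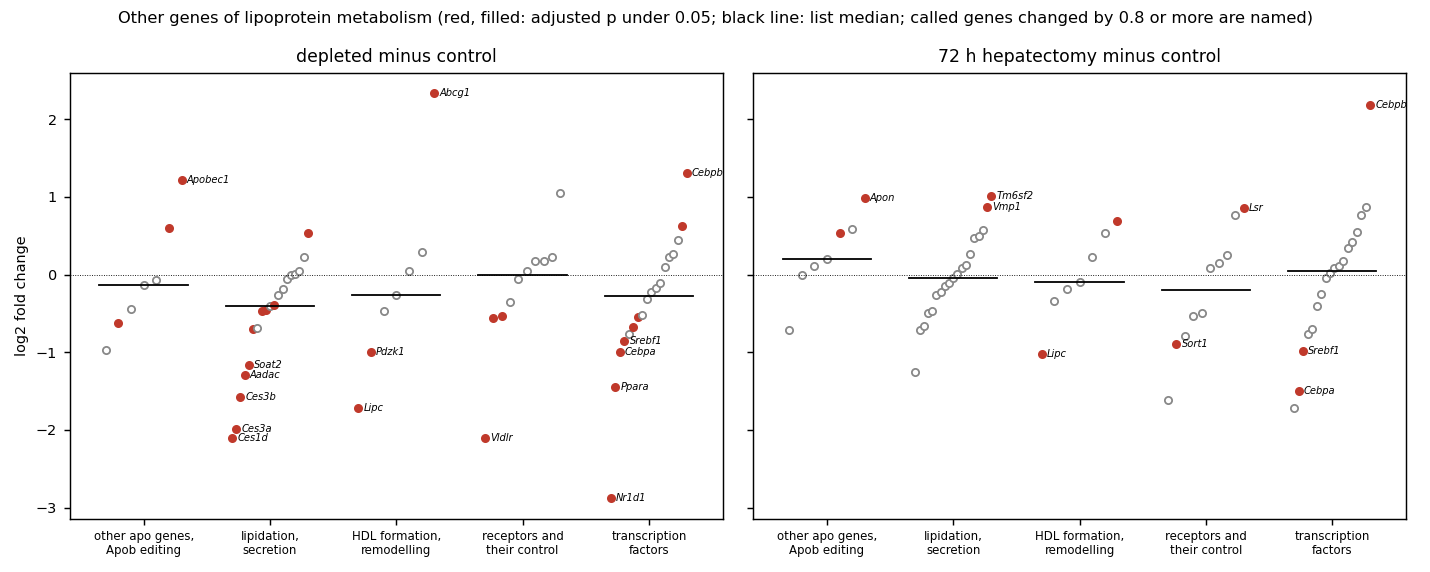
Log2 fold changes of the other genes of lipoprotein metabolism by list after depletion (left) and after hepatectomy (right); each point is a gene, red and filled where the adjusted p was under 0.05, and the black line is the list median. The lipidation and secretion list has 9 genes called lower after depletion (median -0.40) and 2 called higher after hepatectomy (median -0.05).

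After hepatectomy fewer genes of these lists passed the test, as over the whole table (8.42% of all genes, against 33.9% after depletion). Apon (0.99 ± 0.21, adjusted p = 0.0129) and Apof (0.54 ± 0.14, adjusted p = 0.0288, lost with the replicate block) rose among the other apolipoproteins. Tm6sf2 (1.01 ± 0.28, adjusted p = 0.0455, lost with the block), which lipidates apoB particles, and Vmp1 (0.87 ± 0.16, adjusted p = 0.00649) rose in the secretion list, whose median was -0.05. Lcat, which esterifies the cholesterol of high-density lipoprotein, rose from 402 ± 42.2 to 650 ± 89.6 CPM (n = 3; 0.69 ± 0.14, adjusted p = 0.0125), and Lipc fell (-1.02 ± 0.26, adjusted p = 0.0324), both lost with the block. Of the receptors, Lsr rose from 143 ± 10.8 to 265 ± 60.7 CPM (0.85 ± 0.15, adjusted p = 0.00629) and Sort1 fell (-0.89 ± 0.21, adjusted p = 0.0226).

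Among the transcription factors, Cebpb rose from 21.6 ± 7.81 to 97.6 ± 35.9 CPM after hepatectomy (2.18 ± 0.24, adjusted p = 0.000407). Cebpa fell from 358 ± 70.4 to 127 ± 19.5 CPM (-1.50 ± 0.23, adjusted p = 0.00301), and Srebf1 fell as well (-0.98 ± 0.26, adjusted p = 0.0378, lost with the block). Cebpa and Cebpb encode related factors that bind like sequences, and the data show them moving in opposite directions in both comparisons, which share the control livers. With the replicate number as a block, which gave 632 calls over all genes against 1164, the calls on Apof (adjusted p = 0.104), Tm6sf2 (0.159), Lcat (0.0736), Lipc (0.0957) and Srebf1 (0.14) were lost, with log2 fold changes of 0.58, 0.94, 0.66, -1.06 and -0.89. The 5 lists then had 1 call for the other apolipoproteins, 1 for secretion, 0 for high-density lipoprotein, 2 for receptors and 2 for transcription factors. Without hepatectomised replicate 2 they had 0, 2, 1, 1 and 2 in the same order (483 over all genes), and leaving out control replicate 1 or 2 gave 1, 1, 1, 1 and 2 (692 and 742 over all genes).

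Between the depleted and the hepatectomised livers, Apobec1 (1.02 ± 0.16, adjusted p = 0.000893) and Abcg1 (2.53 ± 0.55, adjusted p = 0.00616) were higher after depletion. Apom, the sphingolipid-carrying apolipoprotein of high-density lipoprotein, was lower (209 ± 20.2 against 430 ± 115 CPM, -1.04 ± 0.23, adjusted p = 0.00615), and so were Apoc4 (-0.74 ± 0.22, adjusted p = 0.0257) and Apof. Pdzk1 (-0.91 ± 0.14, adjusted p = 0.00087) and Scarb1, the gene of SR-BI (-0.80 ± 0.22, adjusted p = 0.0183), were lower too. In the secretion list Ces1d (-1.45 ± 0.39, adjusted p = 0.0177), Aadac (-1.02 ± 0.22, adjusted p = 0.00577), Soat2 and Pla2g12b were lower; without depleted replicate 3 the list had 2 genes lower (658 over all genes, against 1399 with all livers), and without depleted replicate 4 it had 7 (1876 over all genes). Of the receptors Lsr was lower (-0.63 ± 0.18, adjusted p = 0.0206), and of the transcription factors Creb3l3 (-0.86 ± 0.21, adjusted p = 0.0102) and Cebpb (-0.86 ± 0.28, adjusted p = 0.0409).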

How the data were processed

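The authors deposited a table of raw read counts per gene for the 13 livers, with exon coordinates and gene lengths. Per the labels' protocols, stranded mRNA libraries were made from 500 ng of TRIzol-extracted RNA; the submitters' processing notes name STAR 2.7.1a, SAMtools 1.15.1, featureCounts 1.6.4 and mm10, and the strand and multi-mapping settings are not given in the sources used here. Gene symbols for 21741 of 22048 IDs came from the reference name table, and 99.94% of the matched IDs overlapped the same gene in GRCm38 (GENCODE M21).

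Counts were filtered with filterByExpr, scaled by TMM (factors 0.8585 to 1.186) and tested two-sided with edgeR 4.0.16 (quasi-likelihood, robust) in R 4.3.3, with group and sex over all 13 livers. Male and female controls were compared on the 6 controls alone (13005 genes). The test was tested on simulated data. Totals put 3 counts at 0.0588 to 0.0848 CPM, and the counting error of the lowest count of the 10 genes was 1.69%; such limits cover counting error only. Within groups, libraries differed by more than sampling noise (median chi-square at least 4.60, against 0.45 for a library sequenced again). Log2 CPM used a prior count of 2.

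The 10 genes, the 5 pathway lists and the 9 marker lists were chosen with earlier results of these data known. Named genes are the 10 genes, the 2 largest rises and falls called per pathway list, and the gene most like each of the 10 among those with a mean log2 CPM of at least 5; the other genes named in lists, and Hnf4a and Lrp1, were chosen after their values were seen. Hepatectomised and control livers with the same replicate number deviated together (r of 0.23, 0.11 and 0.52), which by the rule used pairs them. These pairs also share sex, and with sex removed the values were 0.08, -0.19 and -0.05. Alternatives were the covariate, the livers fitted, the scaling, the filter, DESeq2 1.42.0, limma-voom (limma 3.58.1), a replicate block and leaving out each liver; the sex interaction and the length shift were added after the data were seen.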

Additional observations from a re-analysis of the deposited data

Results flagged for a closer look

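Each of the 10 genes was checked for a liver far from the others of its group in the control and the depleted livers, 20 groups of values in all, of which chance alone would mark about 1 in 20. Apoa4 in control replicate 4, at 210 CPM, stood apart from the next highest control at 126 CPM, a gap of 0.66 of the group's range. Apoc1 in control replicate 6, at 4437 CPM, stood apart from the next highest control at 3023 CPM, a gap of 0.65 of the range.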

How the results depend on the processing

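At this sequencing depth the counting error of the lowest count of the 10 genes was 1.69%. The groups were small, with a single male among the depleted and a single female among the hepatectomised livers. What limited the calls was not tested. Over the 10 genes and the named pathway genes, 1222 of 1403 alternative fold changes kept their direction and their side of the threshold, 146 lost the call, 6 gained it and 29 changed sign. Of the mean CPM levels, 28 of 30 moved by less than an SD under scaling by library size alone, and Apoc3 (1230) and Apob (4024) after hepatectomy moved by more.

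Of the 10 genes, the number called after depletion was 1 with females only and 2 to 5 with a liver left out. After hepatectomy it was 1 with library size alone and 1 to 2 with a liver left out. Between depleted and hepatectomised livers it was 1 with only the groups compared, 4 with DESeq2 and 1 to 3 with a liver left out, and between control males and females it was 1 with DESeq2. Over all genes, 4692 calls after depletion became 2695 with females only and 2960 to 4817 with a liver left out. The 1164 calls after hepatectomy became 613 with males only, 2192 with library size alone, 1939 with DESeq2 and 483 to 1331 with a liver left out. The 3236 calls between depleted and hepatectomised livers became 2105 with only these groups and 1709 to 3850 with a liver left out, and the 96 calls between the sexes became 445 with DESeq2. The cause was not tested.

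With library size alone, the all-gene median log2 fold change was -0.237 after hepatectomy (-0.023 with TMM) and 0.273 between depleted and hepatectomised livers (-0.046). Genes called then numbered 626 higher and 1566 lower after hepatectomy (838 and 326 with TMM), 2884 and 1471 after depletion (2614 and 2078), and 3102 and 610 between the treated groups (1837 and 1399).

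None of the fold changes that changed sign was called in the main result. After depletion, Mttp was -0.01 without the sex covariate and with limma-voom, -0.05 with the replicate block and -0.12 to 0.12 with a liver left out, and Apoc3 was -0.13 to 0.18 with a liver left out. After hepatectomy, Apoa5 was 0.01 with only the groups compared and -0.15 to 0.15 with a liver left out, and Apoc1 was 0.06 with the replicate block and -0.31 to 0.16 with a liver left out. Between the treated groups, library size alone gave 0.17 for Apoa5, 0.10 for Apob and 0.06 for Mttp. There Apoc3 was -0.07 with only the groups compared, -0.04 with the replicate block and -0.12 to 0.18 with a liver left out, and Apoa1 was -0.66 to 0.25. Between the sexes, leaving out a liver gave -0.59 to 0.13 for Apoa4, -0.03 to 0.36 for Apoa5 and -0.12 to 0.10 for Apob.

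The replicate numbers did not pair the depleted livers with controls (r of -0.26, -0.19, -0.34 and 0.07) or with hepatectomised livers (0, -0.13 and -0.35). Most of these pairs are of mixed sex, and with sex removed the values were 0.07, -0.1, 0.42 and 0.08, and 0.16, 0.04 and 0.27. With the replicate block, 3887 genes were called after depletion and 3170 between the treated groups. Apoc1 after depletion was then -0.67 with an adjusted p of 0.0631, and the calls on the other 9 genes were those of the fit without the block. After hepatectomy the replicate block gave 632 genes and changed no call among the 10.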
